A study of Mus musculus with 7 samples.

Results

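Transcripts of the EGF ligands and the ERBB receptors were examined in cultured mouse oligodendrocyte precursor cells (OPCs), the dividing glia from which myelinating oligodendrocytes form. The 10 genes were chosen by symbol, with earlier results of these data known. They are the ligand genes Hbegf, Areg, Ereg, Tgfa and Nrg1, the receptor genes Egfr, Erbb2, Erbb3 and Erbb4, and the receptor inhibitor gene Errfi1. All 10 were found among the 48795 Ensembl genes of the count table, each under 1 identifier. The 3 treated libraries came from cells given 20 µM phenylephrine for 1 hour, a drug that activates α1-adrenergic receptors (PE libraries). The 4 control libraries came from untreated cells. Both groups were wild-type CD-1 primary OPCs from pups of postnatal days 4 to 7 with equal numbers of males and females, and the labels name no vehicle and no transgene. Control libraries are numbered 1 to 4 and PE libraries 2 to 4, and libraries of the same number share a code in their titles, so there are 3 pairs and control 1 has no partner. Nothing states that the numbers mark separate cultures or litters, and the p-values below therefore speak for the spread among these libraries, which may be technical.

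EGF family ligands are made as membrane-anchored precursors and are released by metalloproteases of the ADAM family. They bind receptor tyrosine kinases that act in pairs. EGFR takes TGF-α, amphiregulin, epiregulin and HB-EGF, while ERBB3 and ERBB4 take neuregulins, and ERBB4 also takes HB-EGF and epiregulin. ERBB2 has no known ligand of its own and serves as the partner of the others, and ERBB3 has a weak kinase and signals through its partner. In the oligodendrocyte lineage, neuregulin and EGF signalling are known for roles in the growth, survival and maturation of precursors. ERRFI1, also called MIG6, binds the kinase domain of EGFR and its relatives and inhibits them, and its gene is a known feedback target of the pathway.

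The libraries held 12837463 to 17962339 counts. All 9 OPC markers were well above 1 CPM (read counts scaled to library size), with Pdgfra, the PDGF receptor of precursors, at 2202 to 2351 CPM in PE libraries and 1343 to 2256 CPM in control libraries. Astrocyte, neuron and microglia markers were lower in sum. The 8 astrocyte markers summed to 1069 to 1609 CPM in PE and 1062 to 1596 CPM in control, the 9 neuron markers to 94.3 to 151 CPM in PE and 71.2 to 139 CPM in control, and the 9 microglia markers to 30.7 to 53.1 CPM in PE and 26.2 to 48.2 CPM in control. In the paired edgeR test described below, 1 of the 9 OPC markers was called lower in PE and 1 of 8 tested neuron markers higher. The share called over all tested genes was 0.54%. In a bulk library, fewer cells of a type and less RNA per cell cannot be told apart. The summed level of 7 committed precursor markers, most of it from Gpr17 and Bcas1, varied with the number. It came to 6284 CPM in PE 2, against 8831 and 6210 CPM in controls 1 and 2, and to 2986 and 2299 CPM in PE 3 and 4, against 3059 and 2281 CPM in controls 3 and 4.

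Tgfa was the most abundant ligand transcript of the untreated cells. Levels of different genes are given here as CPM per kilobase of exon, since longer transcripts collect more reads. Tgfa stood at 50.6 ± 5.50 CPM per kb (SD, n = 4), at the 94.3 percentile of the 15894 tested genes with an annotated length, and was 85.8% ± 2.89 of the summed level of the 5 ligand genes. Hbegf followed at 5.99 ± 1.33 CPM per kb, with 10.3% ± 2.60 of the sum. The other ligand genes were low, Areg at 1.29 ± 0.831, Nrg1 at 0.959 ± 0.180 and Ereg at 0.0963 ± 0.0723 CPM per kb. Ereg had 1, 10, 4 and 9 reads in controls 1 to 4, and the read in control 1 lies under the floor of 3 counts. With the longest transcript as the length in place of all exons, Hbegf was at 10.02 and Nrg1 at 1.83 CPM per kb, and Nrg1 then stood above Areg. In all 4 control libraries Tgfa was above every other of the 10 genes.

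Of the receptors, Erbb4 and Egfr had similar levels in untreated cells and Erbb2 was the lowest. Erbb4 was at 11.2 ± 3.15, Egfr at 9.27 ± 0.374, Erbb3 at 7.25 ± 4.53 and Erbb2 at 1.07 ± 0.275 CPM per kb (SD, n = 4). Erbb4 exceeded Erbb3 in all 4 control libraries. It exceeded Egfr in 2 of 4, and Egfr exceeded Erbb3 in 2 of 4, so the place of Egfr was not resolved. Erbb2 lay below them in every control library, at 0.684 to 1.33 CPM per kb. It made up 3.75% ± 0.689 of the summed receptor level, against 38.8% ± 1.27 for Erbb4. The share of Egfr varied from 23.4% to 42.6% and that of Erbb3 from 14.9% to 32.7%. Errfi1 was the second most abundant of the 10 genes, at 24.6 ± 9.85 CPM per kb, above Erbb4 in all 4 control libraries. Areg, Erbb2 and Nrg1 were neighbours whose ranges overlapped, as were Erbb3 and Hbegf.

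**Figure D1:**
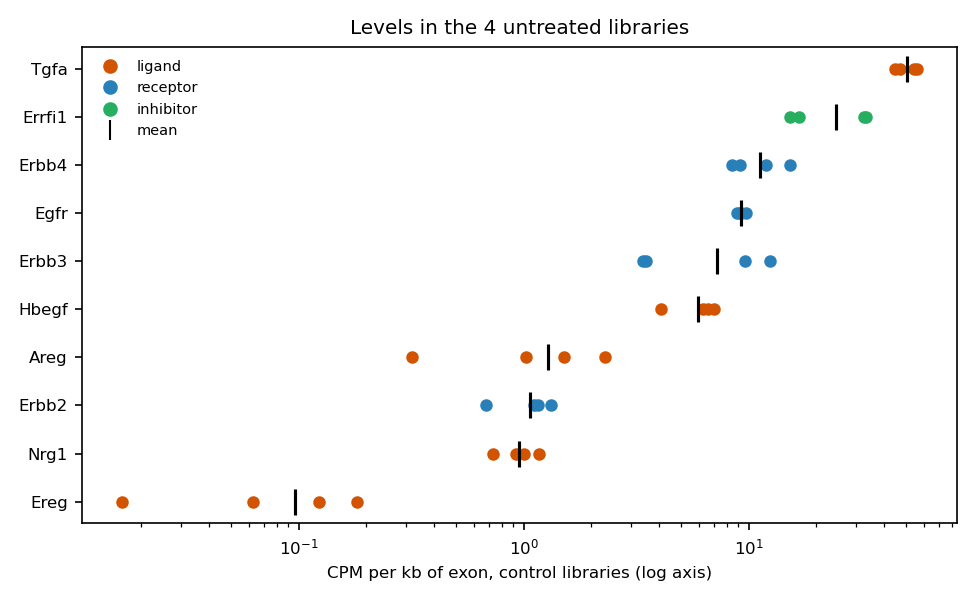
Level of each gene in the 4 control libraries, in CPM per kb of exon on a log axis; each point is a library, coloured by role, and the bar is the mean. Tgfa lies near 50.6 and Ereg near 0.0963 CPM per kb, and the points of Erbb3 and Errfi1 fall into separate clumps.

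The comparison of PE with control asks whether α1-adrenergic stimulation alters these transcripts within 1 hour. None of the 9 genes that passed the filter on low counts was called, either without the pairs (edgeR quasi-likelihood test, Benjamini-Hochberg adjusted p of at least 0.9999) or with the replicate number as a block (smallest adjusted p = 0.906, for Erbb3). The background was 0% of 15934 tested genes called without the pairs and 0.54% called within pairs. None of these 9 had an unadjusted p under 0.05 in either fit. Over all tested genes, 71 did without the pairs and 918 did within pairs. The median log2 change of the 9 genes was 0.01 without the pairs and 0.11 within pairs, beside 0.01 and 0.00 over all tested genes. Of the 9, 8 had a log2 change above 0 within pairs, where 49.3% of all tested genes did, and 2 (Tgfa and Erbb3) were higher in all 3 pairs, where 11.9% of all tested genes were. PE and control libraries overlapped for each of the 10 genes, while they did not for 1.26% of all tested genes.

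**Figure D2:**
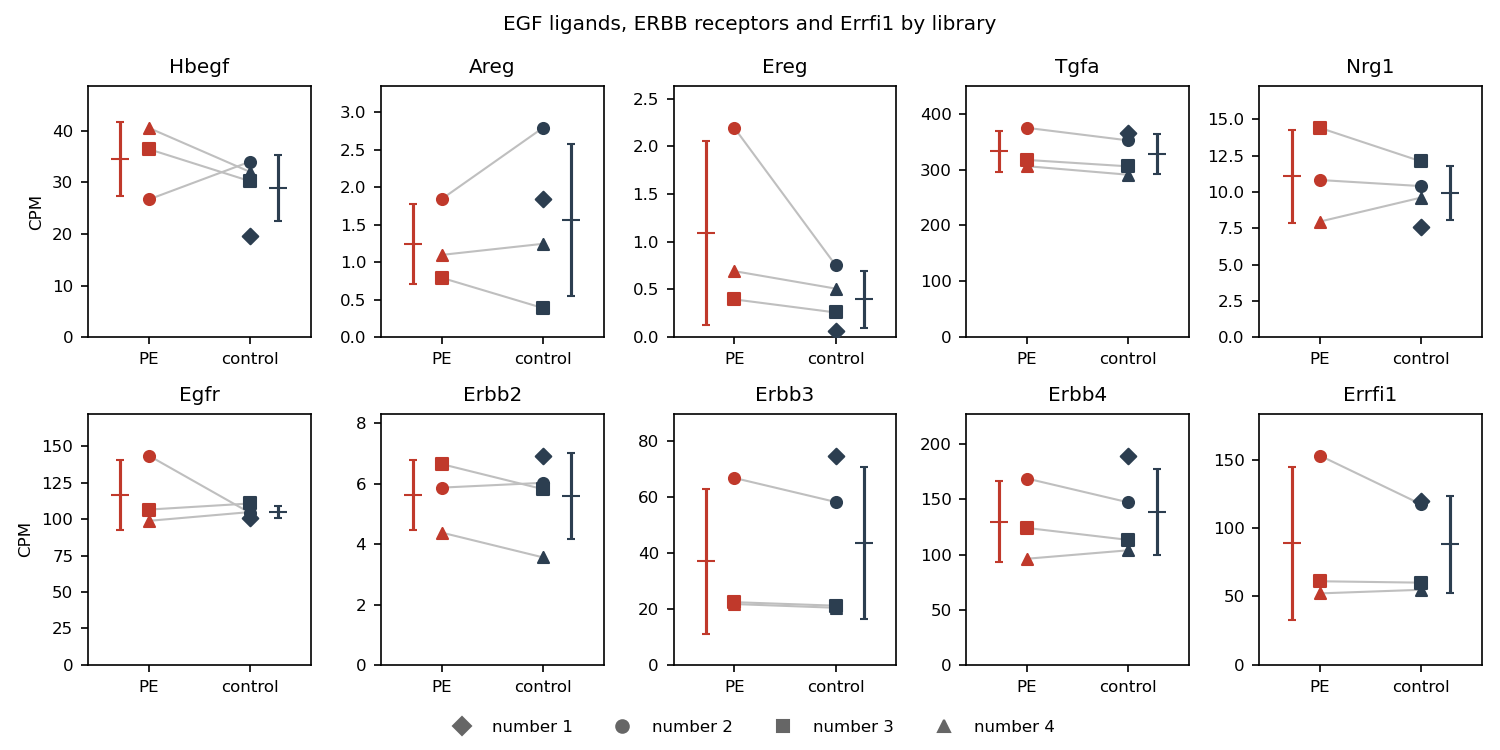
CPM of the 10 genes in the 3 PE and 4 control libraries on axes that start at 0; marker shape gives the replicate number, grey lines join libraries of the same number, and the bars beside the points are mean ± SD. The groups overlap in each panel. For Areg, Ereg, Tgfa, Erbb3, Erbb4 and Errfi1 the libraries of number 2 lie above those of numbers 3 and 4 in both groups.

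Tgfa, the gene of the EGFR ligand TGF-α, barely differed with treatment. It lies on chromosome 6 from 86195223 to 86275719 (plus strand, GRCm38, GENCODE M21, as for all positions below). PE libraries 2, 3 and 4 had 375, 317 and 306 CPM, and control libraries 1 to 4 had 365, 352, 306 and 291 CPM. Each PE library was slightly above the control of its number, and the groups overlapped. Within pairs the log2 change was 0.07 ± 0.04 (SE), a fold of 1.05 with a 95% interval from 0.992 to 1.11, which did not pass (adjusted p = 0.914).

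Hbegf, the gene of heparin-binding EGF-like growth factor, moved in different directions in the pairs. It lies on chromosome 18 from 36504927 to 36515805 (minus strand). The PE libraries had 26.7, 36.4 and 40.5 CPM, and the control libraries had 19.6, 34.0, 30.2 and 32.0 CPM. PE libraries 3 and 4 stood above every control, while PE 2 was below its own control, and control 1 was the lowest of all. The log2 ratios in pairs 2, 3 and 4 were -0.35, 0.27 and 0.34, and over the pairs the fold was 1.08 (interval 0.925 to 1.25, adjusted p = 0.979). With number 2 left out, Hbegf was called higher, at a log2 change of 0.31 ± 0.08 (1.24-fold, adjusted p = 0.00721 by edgeR with the block). That fit rests on 2 pairs and called 1.57% of 16085 genes. With number 3 or number 4 left out instead, the log2 change of Hbegf was 0.02 and -0.03, and it was not called.

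Areg and Ereg, the genes of amphiregulin and epiregulin, gave too few reads for firm statements. They are neighbours on chromosome 5, Ereg from 91074622 to 91093646 and Areg from 91139599 to 91148432, both on the plus strand. Areg had 26, 10 and 19 reads in the PE libraries and 27, 37, 6 and 22 reads in the control libraries, and its log2 ratios of -0.57, 0.83 and -0.16 in pairs 2, 3 and 4 had no common direction. The paired fold of Areg was 0.876 with an interval from 0.545 to 1.41 (adjusted p = 0.997). Ereg had 31, 5 and 12 reads in the PE libraries against 1, 10, 4 and 9 reads in the control libraries, and did not pass the filter. PE library 2 held most of the treated reads, although the PE library was above its control in each of the 3 pairs. In a paired edgeR fit without the filter the log2 change of Ereg was 1.00 ± 0.44. It did not pass (unadjusted p = 0.0221, adjusted p = 0.810).

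Nrg1 encodes neuregulin 1, the ligand of ERBB3 and ERBB4, and was low throughout. It spans chromosome 8 from 31814551 to 32884029 (minus strand) with 18 annotated transcripts, which gene counts do not separate. PE libraries had 10.8, 14.4 and 7.96 CPM, and control libraries had 7.61, 10.4, 12.1 and 9.61 CPM. PE 3 was the highest library and control 1 the lowest, and the pairs disagreed in direction (log2 ratios 0.06, 0.25 and -0.27). The paired fold was 1.01 (interval 0.842 to 1.22, adjusted p = 1.00).

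Egfr, which encodes the receptor of TGF-α and amphiregulin, was steady in all libraries but PE 2. The gene lies on chromosome 11 from 16752203 to 16918158 (plus strand). PE libraries had 144, 106 and 98.8 CPM, and control libraries had 100, 104, 111 and 105 CPM. PE 2 was the highest library, and the other 6 lay close together. The log2 ratios in pairs 2, 3 and 4 were 0.46, -0.06 and -0.08. PE 2 also had the highest marker sums of all 7 libraries for astrocytes (1609 CPM, against 1596 CPM in control 2), neurons (151 and 139 CPM), microglia (53.1 and 48.2 CPM), endothelial cells (47.9 and 35.7 CPM) and mural and leptomeningeal cells (270 and 230 CPM). The endothelial difference lay mostly in Kdr (33.0 and 22.5 CPM), while Cldn5 and Pecam1 were lower in PE 2. The neuron difference lay mostly in Gad1 (38.8 and 22.9 CPM), while Tubb3 and Nefl were lower in PE 2. Gad1 was also above its control in pair 3 (22.5 and 17.1 CPM) and pair 4 (21.4 and 7.97 CPM). The mural and leptomeningeal difference lay mostly in Vtn (125 and 87.4 CPM), while Col1a1, Col1a2 and Acta2 were lower in PE 2. Of the astrocyte markers, Gfap and Fgfr3 were lower in PE 2 than in control 2 and the others higher. Of the microglia markers, Cx3cr1 and C1qa were lower in PE 2 and the others higher. The part of any of these cell types in the Egfr level of PE 2 was not tested. The paired fold was 1.08 (interval 0.959 to 1.21, adjusted p = 0.978). Without number 2 the log2 change was -0.07 ± 0.05 and was not called either (adjusted p = 0.825). With number 3 or number 4 left out instead, the log2 change was 0.19 and 0.21. Neither was called (adjusted p = 0.0997 without number 4, edgeR with the block).

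Erbb2, the gene of the receptor without a ligand, lies on chromosome 11 from 98412470 to 98437716 (plus strand) and shares 9 bases of exon with the oppositely oriented Mien1. Its reads cannot be assigned by strand, but that overlap is short beside 5210 bases of exon. Erbb2 had 5.87, 6.65 and 4.38 CPM in PE libraries and 6.93, 6.03, 5.82 and 3.56 CPM in control libraries. The libraries of number 4 were the lowest of each group. Its paired fold was 1.11 (interval 0.879 to 1.39, adjusted p = 0.987).

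Erbb3 and Erbb4, the neuregulin receptor genes, differed far more between replicate numbers than with treatment. Erbb3 lies on chromosome 10 from 128567523 to 128589652 and Erbb4 on chromosome 1 from 68032186 to 69108059, both on the minus strand. Erbb3 had 66.8, 22.4 and 21.7 CPM in PE 2, 3 and 4, and 74.7, 58.2, 21.2 and 20.4 CPM in controls 1 to 4. Its high libraries were PE 2 and controls 1 and 2, and the other 4 lay between 20.4 and 22.4 CPM. Without the pairs the log2 change of Erbb3 was -0.24 ± 0.60 and within pairs it was 0.14 ± 0.07, so the direction turned when the numbers were matched (paired fold 1.10, interval 0.994 to 1.21, adjusted p = 0.906). Erbb4 had 169, 124 and 96.3 CPM in PE libraries and 190, 147, 113 and 104 CPM in control libraries. Here too the direction turned, with a log2 change of -0.09 ± 0.26 without the pairs and 0.07 ± 0.06 within pairs (fold 1.05, interval 0.970 to 1.14, adjusted p = 0.978).

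Errfi1, the gene of the receptor inhibitor, lies on chromosome 4 from 150853919 to 150868892 (plus strand). It had 153, 61.1 and 52.3 CPM in PE 2, 3 and 4, and 120, 117, 60.1 and 54.9 CPM in controls 1 to 4. PE 2 and controls 1 and 2 were high and the other 4 low, as for Erbb3. The log2 ratios in pairs 2, 3 and 4 were 0.38, 0.02 and -0.07, and the paired fold was 1.10 (interval 0.986 to 1.22, adjusted p = 0.914). With number 2, 3 or 4 left out, the paired log2 change was -0.02, 0.17 and 0.23. None of these was called (adjusted p = 0.05145 without number 4, edgeR with the block). The intervals come from a spread estimate that draws on all genes, and the ratios of single pairs can lie outside them, as they do for Hbegf, Areg, Nrg1, Egfr, Erbb4 and Errfi1.

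**Figure D3:**
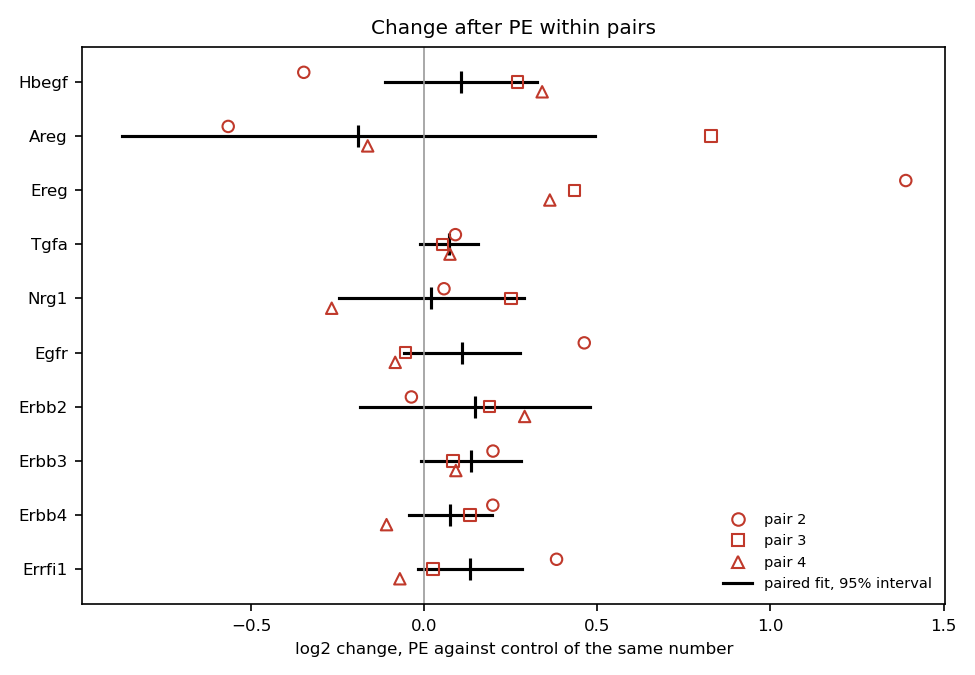
Log2 change of each gene, PE against the control of the same number, for pairs 2, 3 and 4 (open red symbols), with the estimate of the paired edgeR fit and its 95% interval (black; Ereg was not tested). Every interval crosses 0, and pair 2 lies apart from the other pairs for Hbegf, Egfr, Errfi1 and Ereg, the last with few reads.

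Upstream sequence of these genes was read for the cAMP response element (CRE), the site bound by CREB, a factor that cAMP and calcium signals activate. The full palindrome TGACGTCA, which reads the same on both strands, was searched in the 250 bases before each annotated start. Windows were at hand for 6 of the 10 genes, 7 windows in all (RefSeq, GRCm38.p6). The motif was found for Areg and for 1 of the 2 starts of Errfi1, and was present in 1.55% of all 32851 windows. Both windows also hold TATAAA, which with the CRE occurs in 0.119% of all windows. Areg and Errfi1 are shown because they carry the motif, with Tgfa, the most abundant ligand gene, as a window without it. Capitals mark the CRE, and all 3 sequences are on the plus strand, 5′ to 3′. They are chr5:91139349-91139598 for Areg, chr4:150854820-150855069 for Errfi1 and chr6:86194972-86195221 for Tgfa.
Areg: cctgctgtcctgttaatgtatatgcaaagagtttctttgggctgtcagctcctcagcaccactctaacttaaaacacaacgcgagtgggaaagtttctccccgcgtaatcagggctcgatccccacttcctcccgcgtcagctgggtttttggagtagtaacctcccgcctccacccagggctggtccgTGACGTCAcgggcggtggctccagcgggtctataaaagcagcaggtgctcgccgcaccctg
Errfi1: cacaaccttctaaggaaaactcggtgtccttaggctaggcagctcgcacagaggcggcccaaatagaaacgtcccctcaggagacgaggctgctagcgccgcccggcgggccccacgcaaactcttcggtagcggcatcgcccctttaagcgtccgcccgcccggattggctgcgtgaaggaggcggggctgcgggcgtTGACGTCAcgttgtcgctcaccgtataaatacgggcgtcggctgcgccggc
Tgfa: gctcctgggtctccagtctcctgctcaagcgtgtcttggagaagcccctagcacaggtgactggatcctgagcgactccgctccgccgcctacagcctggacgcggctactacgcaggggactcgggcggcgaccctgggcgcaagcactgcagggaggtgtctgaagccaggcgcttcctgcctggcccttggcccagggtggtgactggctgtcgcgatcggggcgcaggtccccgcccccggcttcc

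The CRE begins 61 bases before the start of Areg and 51 bases before that of Errfi1, with TATAAA beginning 31 and 28 bases before it. Neither gene was called after PE, with log2 ratios from -0.57 to 0.83 for Areg and from -0.07 to 0.38 for Errfi1 over the 3 pairs. A motif match is a description of the letters, and the gene counts do not say which start of Errfi1 was used. At its read numbers, the interval for Areg reaches a fold of 1.41, so a modest difference was not detectable at this depth.

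Since the libraries separated by replicate number, the numbers themselves were compared in the same paired model. This test was added after the data had been seen. Of the 9 tested genes 8 differed between numbers (edgeR quasi-likelihood F test, adjusted p under 0.05), where 68.3% of all tested genes did, so such a difference was the rule in these libraries. Egfr was the exception (adjusted p = 0.0821), but it passed with library totals alone (adjusted p = 0.0338), without the filter (adjusted p = 0.00229) and without control 1 (adjusted p = 0.0469). Between numbers 2 and 4 alone, Egfr was 1.21-fold higher in number 2 (adjusted p = 0.0216). That difference rests on library PE 2 (144 CPM, against 98.8 CPM in PE 4), as controls 2 and 4 were alike (104 and 105 CPM). Without control 1, Hbegf no longer passed (adjusted p = 0.220) and Ereg, then tested, did (adjusted p = 0.00503). Between single numbers, 5 of 9 genes differed between 2 and 3 (51.6% of all tested genes), 7 of 9 between 2 and 4 (58%), and 3 of 9 between 3 and 4 (22.2%). Erbb3 was 2.86-fold higher in number 2 than in number 3 (log2 difference 1.52 ± 0.08, adjusted p = 8.04e-10) and 2.96-fold higher than in number 4. For Errfi1 the folds were 2.22 (1.15 ± 0.09, adjusted p = 2.73e-08) and 2.51. Erbb4 was 1.33-fold and 1.58-fold higher, and Tgfa 1.17-fold and 1.22-fold higher, with both differences past the threshold for each gene. Areg was 3.99-fold and 1.96-fold higher, also past the threshold, from 26 reads in PE 2 and 37 reads in control 2. Erbb3, Errfi1, Tgfa and Hbegf did not differ between numbers 3 and 4 past the threshold, while Erbb4, Erbb2 and Nrg1 were higher in number 3 (log2 differences 0.24, 0.65 and 0.59).

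The committed precursor markers did not all follow the same order as Erbb3 and Errfi1 across the numbers. Of the 7, 5 were called higher in number 2 than in number 3, and Gpr17 and Bcas1 made up most of their sum. Gpr17, a receptor of committed precursors, had 3250, 909 and 668 CPM in PE 2, 3 and 4, and 4587, 3268, 919 and 692 CPM in controls 1 to 4. Enpp6, another marker of committed precursors, had 115, 149 and 69.3 CPM in PE 2, 3 and 4, and 148, 103, 161 and 70.7 CPM in controls 1 to 4, so it was higher in number 3 than in number 2. All 7 committed precursor markers differed between numbers, where 68.3% of all tested genes did. So did all 9 OPC markers and all 8 markers each of mature oligodendrocytes, astrocytes, and mural and leptomeningeal cells. Of the mature oligodendrocyte markers, Cnp had 871, 572 and 414 CPM in PE 2, 3 and 4, and 1495, 887, 573 and 393 CPM in controls 1 to 4. Mbp was instead highest in number 3 (792 CPM in PE 3 and 773 CPM in control 3, against 485 and 466 CPM in number 2). The mural and leptomeningeal markers summed to 270 CPM in PE 2, against 184 and 230 CPM in controls 1 and 2, and to 110 and 108 CPM in PE 3 and 4, against 110 and 150 CPM in controls 3 and 4. The part of any of these cell types in the levels of Erbb3 and Errfi1 was not tested. Among the receptors the sum of levels was 38.6 CPM per kb in PE 2 against 24.4 and 21.0 in PE 3 and 4, and 38.0, 32.0, 23.6 and 21.7 in controls 1 to 4. Egfr accordingly made up the largest share of receptor reads per kb in controls 3 and 4 and in PE 4, and Erbb4 did in the other libraries.

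**Figure D4:**
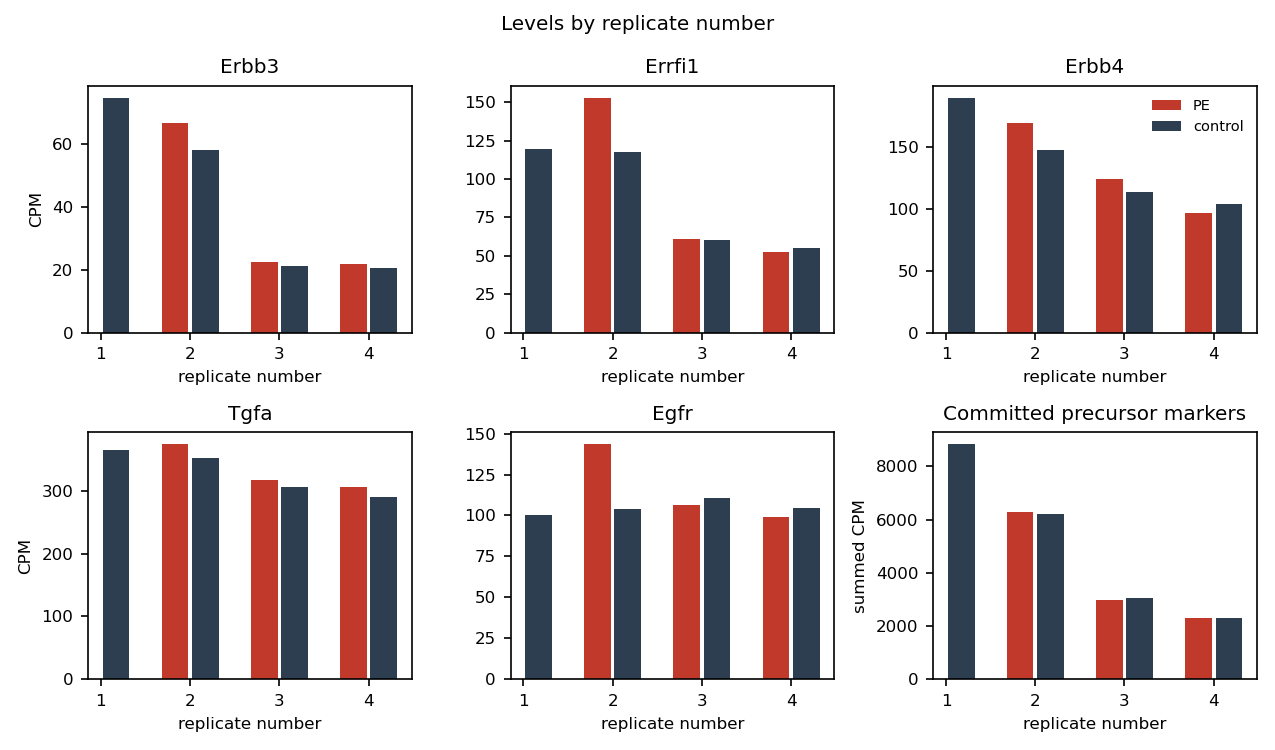
CPM by replicate number for Erbb3, Errfi1, Erbb4, Tgfa and Egfr, and the summed CPM of the 7 committed precursor markers (PE bars left of control bars; number 1 has a control library only, and all axes start at 0). Erbb3, Errfi1 and the marker sum are high in numbers 1 and 2 and low in numbers 3 and 4, while Egfr is nearly level apart from PE 2.

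The other genes of the pathway were followed as 5 lists of 74 genes in all, 72 of them tested. None of the 72 passed the edgeR test in either fit. Of the 6 other ligand genes 4 were tested, and Egf itself averaged 2.13 CPM in PE and 2.03 CPM in control, while Btc and Epgn did not pass the filter. Nrg2, the most abundant of them per length, averaged 4.81 CPM in PE and 4.53 CPM in control (paired log2 change 0.08 ± 0.16, adjusted p = 0.997). The 13 genes of ligand release had a median paired log2 change of 0.00, and the sheddase genes Adam10 (201 CPM in PE, 207 CPM in control) and Adam17 (101 and 95.6 CPM) were well expressed. Adam10 and Adam12 had paired log2 changes of -0.07 ± 0.04 and -0.10 ± 0.06 and did not pass (adjusted p = 0.952 and 0.924). Adam12 was at 0.19 ± 0.64 without the pairs, so its direction turned as well.

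The 24 receptor adaptors had a median paired log2 change of -0.03, with 1 member at an unadjusted p under 0.05. That was Pik3r1, the regulatory subunit gene of PI 3-kinase, which averaged 387 CPM in PE and 429 CPM in control (-0.14 ± 0.05, lower in 3 of 3 pairs, adjusted p = 0.381). Src, a kinase recruited by ERBB receptors, followed at -0.09 ± 0.05 (adjusted p = 0.912). The 15 attenuators had a median of -0.01, and their smallest p belonged to the feedback inhibitor Spry2 (211 CPM in PE, 177 CPM in control, 0.19 ± 0.05, higher in 3 of 3 pairs, adjusted p = 0.186). The CBL-binding adaptor gene Sh3kbp1 had 0.12 ± 0.06 (adjusted p = 0.90).

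The 17 ERK response targets, which include genes that EGFR activity is known to induce, did not share a direction. Their median was 0.00 within pairs, and 9 had an unadjusted p under 0.05, or 52.9% against 5.76% of all tested genes. The list was chosen with earlier results of these data known, so the shares are not an independent comparison. Dusp6, the ERK phosphatase gene, was the closest to passing, at 48.7 CPM in PE and 52.8 CPM in control (-0.31 ± 0.07, lower in 3 of 3 pairs, adjusted p = 0.0516). It passed under limma-voom with the block (adjusted p = 0.0393). Without number 2, 7 of the 74 pathway genes were called by edgeR with the block, 4 higher and 3 lower, where 1.57% of all tested genes were called. Higher were Dusp5 (1.94-fold), Spry2 (1.21-fold), Spry1 (1.18-fold) and Egr1 (1.12-fold), and lower were Dusp6 (0.788-fold), Spry4 (0.851-fold) and Pik3r1 (0.880-fold). These 7 are named because they make up that count, a choice made once their values were known.

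The genes most like 4 of the members over the 7 libraries were listed as a description, by Pearson correlation of log2 CPM among 13198 genes. Those most like Erbb3 were Asl (r = 0.999), Rab5b (r = 0.998) and Acbd5 (r = 0.998), and 1908 genes had an r above 0.9 with it. For Errfi1 they were Lcat (r = 0.997), Itih1 (r = 0.997) and Cyp2a4 (r = 0.997), with 1783 genes above 0.9. These values follow the split of the libraries by number, which many genes share. Egfr had 11 genes above 0.9, led by Tmem26 (r = 0.953), Ago3 (r = 0.952) and Ankrd44 (r = 0.935). Nrg1 had 67, led by Med12l (r = 0.983), Prrc2a (r = 0.967) and Dnm2 (r = 0.960).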

How the data were processed

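The data are whole-number read counts per Ensembl gene in 7 libraries (3 PE, 4 control), deposited with no normalization. The tools listed per the submitters' processing notes are STAR, HTSeq and bcl2fastq 2.17, the builds GRCm38 and mm10. Their annotation release and strand setting are not stated. Libraries were made, per the labels' protocols, with SMART-Seq v4 and Nextera XT kits, which do not mark strand and amplify cDNA, so reads are not independent molecules and floors (3 counts, 0.167 to 0.234 CPM) cover counting error only. Those protocols also describe tamoxifen, virus and immunoprecipitation, and whether any step applied to these cells is not stated.

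Tests were made with edgeR 4.0.16 (R 4.3.3), TMM scaling and filterByExpr (minimum count 10, minimum total 15), leaving 15934 genes, with two-sided quasi-likelihood tests, Benjamini-Hochberg adjustment over all of them and a threshold of 0.05. The design held the group alone, and a second fit added the replicate number as a block. Deviations from the group means correlated at 0.736, 0.674 and 0.789 within numbers 2, 3 and 4, above 0.1 in each. Between numbers, PE 2 with control 1 stood at 0.666, PE 4 with control 3 at 0.364 and PE 3 with control 4 at 0.218. The rest were negative. Each PE library correlated best with the control of its number, so the numbers, which also share title codes, were taken to pair the libraries. Libraries of a group were not duplicates (their counts gave a chi-square over degrees of freedom of 11.9 to 103). Control 1, without a partner, adds nothing to the paired estimate. CPM used TMM-adjusted library sizes, and log2 ratios a prior count of 2. Symbols were found for 48349 identifiers. Exon lengths and positions came from GENCODE M21, with the union of exons as length. Alternatives were limma-voom 3.58.1, DESeq2 1.42.0, other scalings, no filter and left-out libraries. The procedure was run on simulated counts with known folds as a check of the code. That run does not bear on the calls in these libraries. All 10 members are named, with every list gene past the test or otherwise the 2 with the smallest paired p, and the 3 genes most like each of Egfr, Erbb3, Nrg1 and Errfi1. The members and lists were chosen with earlier results of these data known.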

Additional observations from a re-analysis of the deposited data

How the results depend on the processing

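No member passed in 17 of 18 alternatives, the exception being the paired fit without number 2 (Hbegf), so the count ranged from 0 to 1 when libraries were left out. The pathway count was 1 by limma-voom with the replicate block and 0 to 7 when libraries were left out. The median log2 change of the members ranged from -0.15 to 0.15 (without control 4 and without pair 4). Under the replicate block Erbb3 turned to 0.14, Erbb4 to 0.075 and Adam12 to -0.10, by DESeq2 with the block to 0.13, 0.077 and -0.093, and by limma-voom with the block to 0.14, 0.077 and -0.11. With library totals alone Erbb2 was at -0.0037 and Errfi1 at -0.0019, and by limma-voom Errfi1 was at -0.064. Over all genes, 86 were called with the block and 0 without it, against 33 and 2 by DESeq2 and 87 and 0 by limma-voom, and the pairing changed no call of a member. With libraries left out, in fits with or without the block, log2 changes ranged from -0.033 to 0.41 for Hbegf, -0.69 to 0.19 for Areg, -0.073 to 0.082 for Tgfa, -0.11 to 0.34 for Nrg1, -0.066 to 0.25 for Egfr, -0.15 to 0.24 for Erbb2, -0.98 to 0.16 for Erbb3, -0.33 to 0.16 for Erbb4, -0.63 to 0.28 for Errfi1, -0.15 to 0.48 for Egf, -0.048 to 0.21 for Nrg2, -0.14 to 0.56 for Adam12, -0.095 to 0.023 for Adam10, -0.11 to 0.078 for Src, -0.016 to 0.14 for Sh3kbp1 and -0.37 to 0.16 for Dusp6. The cause was not tested. Taking the longest transcript as length kept 5 of 10 genes in their place in the order of levels, and leaving out a control kept 6 (control 1) to 10, with Tgfa and Errfi1 leading and Ereg last in each. Between replicate numbers 8 to 10 members were called under the alternatives. Few reads limit Areg, Ereg and Erbb2.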

Other observations

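The full CRE palindrome was looked up for all tested genes that had a promoter window, 11083 in all, after the values of Areg and Errfi1 had been seen. Of 335 genes with the motif within 250 bases before an annotated start, 8 rose within pairs and 0 fell, or 2.39% against 0.484% higher among the 10748 genes without it, where 52 rose and 5 fell. The median log2 change was 0.01 with the motif and 0.00 without it. No test was run on this difference. The 8 include Scg2, a secretory granule gene (log2 change 0.83 ± 0.11, adjusted p = 0.00114 by edgeR with the block), and Dusp1, a MAP kinase phosphatase gene (0.71 ± 0.10, adjusted p = 0.00152). They also include Dio2, the gene that activates thyroid hormone (0.67 ± 0.08, adjusted p = 0.000495). Nr2e1, a nuclear receptor gene of neural progenitors (0.47 ± 0.06, adjusted p = 0.00114), and the small MAF gene Maff (0.43 ± 0.09, adjusted p = 0.0339) were among them too. The rest were Gm26744 (1.92 ± 0.40, adjusted p = 0.0427), Btg2 (0.41 ± 0.07, adjusted p = 0.0150) and Zdbf2 (0.36 ± 0.07, adjusted p = 0.0348).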
